A study of Homo sapiens with 18 samples.

Results

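RNA from MCF10A cells in 3D culture at timepoint 3 (3 libraries) was set against RNA from the same culture at timepoint 1 (3 libraries), 6 of the 18 libraries of the series. The libraries were chosen by their titles and were paired by replicate number. MCF10A is an established line of human breast epithelium that grows without limit and is not malignant. The cells were detached with trypsin, seeded sparsely on compliant polyacrylamide gels coated with Matrigel, a laminin-rich basement membrane extract, and grown in medium with horse serum, EGF, insulin, cholera toxin and hydrocortisone. In 3D, both at timepoint 3 and at timepoint 1, the medium also carried 2% Matrigel, which sets around the cells; in 2D it was replaced by fresh medium without it. The protocol lists harvests at 3, 12 and 21 h after plating, and timepoints 1, 2 and 3 are matched to those hours by their order only. Time since plating and time under Matrigel therefore change together between the 2 groups, and the same interval in 2D is the only arm that lacks the added Matrigel. The labels do not say whether replicates came from separate cultures, so the p-values reflect only how far these samples spread, and that spread may be technical.

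Epithelial cells that have been detached and replated rebuild their contacts with matrix and with each other. Tight junctions are sealed by claudins and occludin, adherens junctions by E-cadherin, and both are tied to actin through adaptor proteins. Immediate early genes are transcription factors such as FOS and EGR family members whose mRNAs appear within minutes of serum, growth factor or mechanical stimulation and decay quickly. The endoplasmic reticulum (ER) adjusts its folding capacity through the sensors ATF6, IRE1 (gene ERN1) and PERK (gene EIF2AK3); ATF6 and IRE1 act largely on ER chaperone genes, and PERK acts through the transcription factor ATF4.

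The labelled cell type was checked against marker genes. All 10 basal breast epithelial markers were detected in all 6 libraries. Of 9 luminal markers PGR and ELF5 were at 0 in all 6, while KRT8 and KRT18 made up most of a luminal sum of 470 to 623 CPM (counts scaled to a common library size by TMM) at timepoint 3 and 846 to 1417 CPM at timepoint 1, and 3 of the 7 tested luminal markers fell. The collagen genes COL1A2 and COL3A1 of fibroblasts, the lymphocyte gene CD3E and the red cell gene HBB were also at 0 in all 6. The leukocyte list was not silent, since CD14, a monocyte gene, had 6.7, 7.64 and 5.53 CPM at timepoint 3, against 13.5, 13.6 and 9.57 CPM at timepoint 1; it fell (-0.88 ± 0.17, adjusted p = 0.00243, edgeR) and made up nearly all of that list's sum. The fibroblast marker sum was 157 to 266 CPM at timepoint 3 and 131 to 160 CPM at timepoint 1, nearly all of it from DCN. COL1A1 and FAP were also detected in all 6 libraries, at 1.48 to 7.64 and 2.14 to 13.2 CPM without TMM scaling. The endothelium marker sum was 1.88 to 2.96 CPM at timepoint 3 and 3.88 to 5.11 CPM at timepoint 1. KDR, PECAM1 and TEK were detected in all 6, and 1 of the 4 tested endothelium markers fell.

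Library totals in the deposited headers were 11.4 to 13.9 M reads at 3D timepoint 3 and 12.2 to 14.9 M at 3D timepoint 1. The summed gene counts were 5.29 to 5.6 and 4.88 to 5.53 times those totals, so CPM is meant here to compare the same gene between libraries and not 2 genes with each other. Sums of CPM over a list, and the part of a sum that a gene makes up, do set genes together and carry this limit. Mitochondrially encoded genes took 0.398% to 0.533% of counts at timepoint 3 and 0.541% to 1.21% at timepoint 1. Replicate 3 of timepoint 1 stood apart in both cultures. In 3D it had the lowest mitochondrial share of that timepoint (0.541%, against 0.976% and 1.21%) and the highest ratio of counts to total (5.53, against 4.89 and 4.88). The same held in 2D, with a share of 0.658%, against 1.17% and 1.25%, and a ratio of 5.48, against 4.93 and 4.73. The library labelled 2D timepoint 3 replicate 1 is tied by its labels to the raw table and to no other. It was left out of the tests, so 17 of 18 libraries were fitted. Its values lay near those of 3D timepoint 3 for many genes, as given with the comparison of the cultures.

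Between timepoint 3 and timepoint 1 in 3D, 4447 of 18592 tested genes (23.9%) differed at an adjusted p under 0.05 by edgeR's quasi-likelihood test with the replicate number as a block. Of these, 2126 (11.4% of tested genes) were higher and 2321 (12.5%) were lower at timepoint 3. The counts of each gene list below are to be read beside these shares. The lower genes moved further: 1097 of them and 457 of the higher genes differed at least 2-fold. The median log2 fold change over all tested genes was 0.04. In 5001 tested genes (26.9%) the CPM of the 3 and 3 libraries did not overlap, so a lack of overlap was common. Without the block 2049 genes were called (756 higher and 1293 lower), and with an offset for GC content and gene length 5665 were called (3298 higher and 2367 lower), so the balance of higher and lower calls depends on the model. In bulk RNA, fewer cells of a type and less RNA per cell cannot be told apart.

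The genes that fell furthest included regulators and enzymes of epithelial cells. CYP1A1, a cytochrome P450 induced through the aryl hydrocarbon receptor, had 0.835, 1.38 and 1.03 CPM at timepoint 3, against 157, 102 and 90.7 CPM at timepoint 1. ELF3, an epithelial ETS-family transcription factor, had 0.251, 0.699 and 1.45 CPM at timepoint 3, against 79.1, 59.9 and 101 CPM at timepoint 1. The 3 libraries of each group stayed far apart in both genes, with log2 fold changes of -6.78 ± 0.50 (SE) and -6.77 ± 0.36 (adjusted p = 6.02e-07 and 4.45e-08, edgeR). NFATC2, a calcium-regulated transcription factor, had 0.0418, 0 and 0 CPM at timepoint 3, against 6.73, 6.54 and 12.6 CPM at timepoint 1; no fold is given because its level at timepoint 3 was at the floor of detection. The cytokine LIF (log2 fold change -5.84 ± 0.30), the transcription factor SOX9 (-4.31 ± 0.18), the tubulin-binding protein TPPP (-6.64 ± 0.37), the signalling adaptor THEMIS2 (-4.51 ± 0.21) and the carnitine synthesis enzyme BBOX1 (-4.81 ± 0.50) also fell. Genes named for fold or p were taken only from called genes whose groups did not overlap, so their lack of overlap was set by that choice. VGLL3, a cofactor of TEAD transcription factors (-2.74 ± 0.12), HES2 (-3.58 ± 0.17) and C1orf116 (-2.90 ± 0.12) were among the 8 lower genes with the smallest p. The lncRNA ENSG00000249007 fell too (-7.30 ± 0.41), but it lies wholly within ELF3 and their reads cannot be told apart, because no label or header says which strand was counted.

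The genes that rose furthest changed by less. TP73, a transcription factor of the p53 family, had 6.01, 8.84 and 7.12 CPM at timepoint 3, against 0.441, 0.825 and 0.94 CPM at timepoint 1 (log2 fold change 3.35 ± 0.23, adjusted p = 3.03e-07, edgeR). Each gene named here for its fold or p was likewise taken only from genes without overlap. INSC, an adaptor in spindle orientation, had 18.4, 21.6 and 6.69 CPM at timepoint 3, against 1.64, 1.47 and 0.973 CPM at timepoint 1 (3.49 ± 0.41). Replicate 3 was the lowest of its group at both times for INSC, and likewise for the collagen VI chain COL6A3, with 15, 12.4 and 2.45 CPM at timepoint 3, against 1.79, 2.1 and 0.132 CPM at timepoint 1 (2.90 ± 0.59). The innate immune receptor TREM1 (2.78 ± 0.38), the chemerin receptor CMKLR2 (2.33 ± 0.44), the NADPH oxidase NOX5 (2.23 ± 0.33), the deubiquitinase STAMBPL1 (1.95 ± 0.22), the bradykinin receptor BDKRB2 (1.92 ± 0.17), melanophilin (MLPH, 1.89 ± 0.17), the adhesion protein FLRT2 (1.87 ± 0.35) and the phosphoinositide 3-kinase subunit PIK3R1 (1.81 ± 0.24) rose as well. Among the higher genes with the smallest p were also the triglyceride synthesis enzyme DGAT2 (1.77 ± 0.16), the cation channel TRPM2 (1.68 ± 0.15), the mitochondrial ribosomal protein MRPL34 (1.34 ± 0.12), the SMN-complex subunit GEMIN6 (1.42 ± 0.13) and the lncRNA ENSG00000258232 (1.00 ± 0.09). ENSG00000258232 lies wholly within the span of the tested gene TUBA1C, BDKRB2 and NOX5 also overlap other tested genes, and reads of such pairs may be shared.

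**Figure D1:**
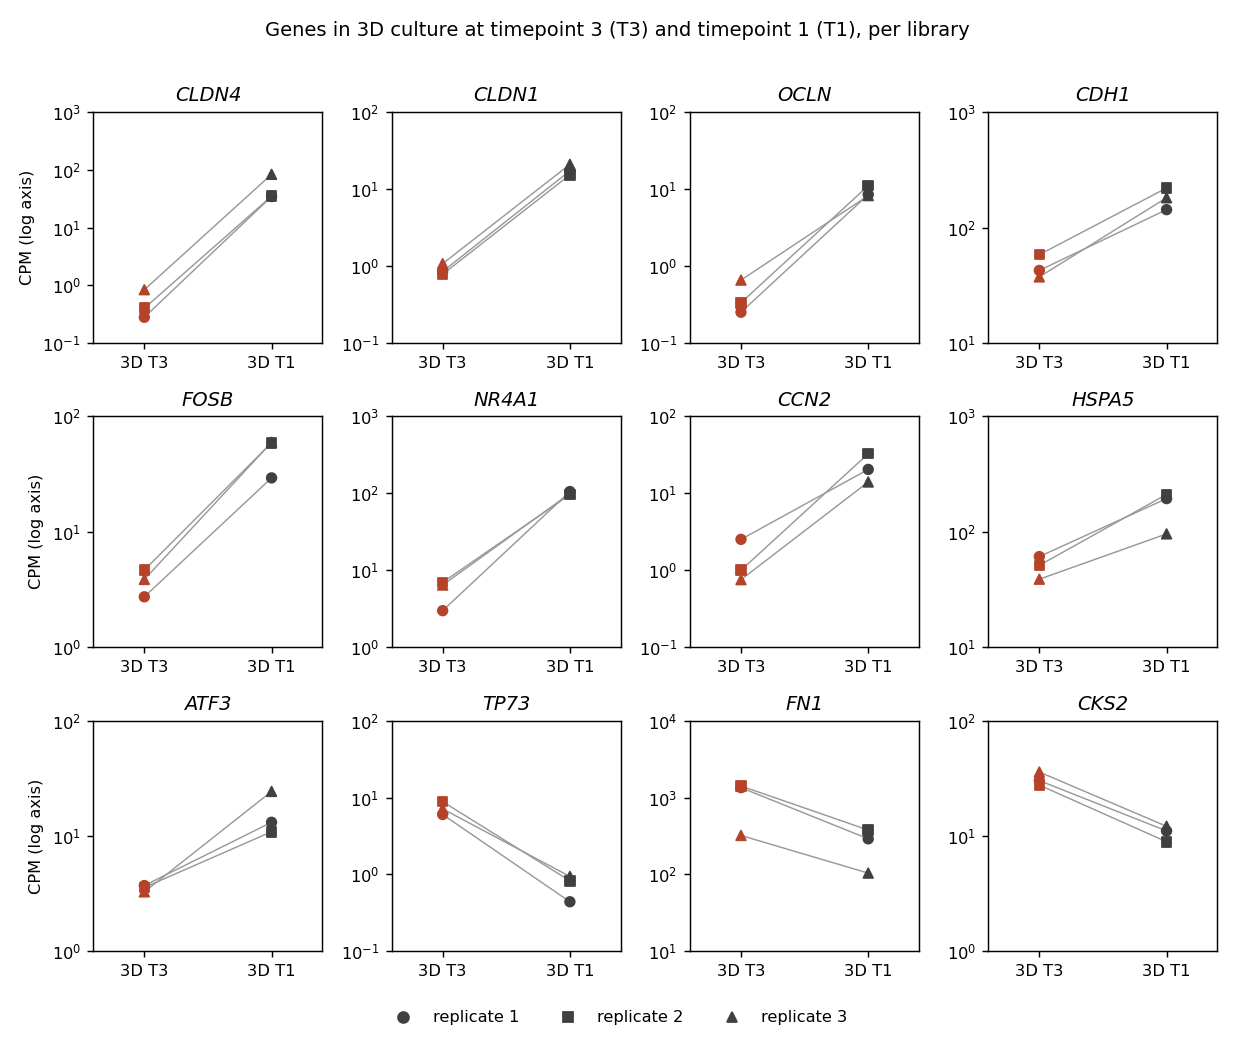
CPM on a log axis of 12 genes in the 3 libraries of 3D timepoint 3 (left, red) and the 3 of 3D timepoint 1 (right, grey), with lines joining equal replicate numbers. In all 12 genes each pair moved the same way; CLDN4 sits at 0.278 to 0.836 CPM at timepoint 3 and at 34.6 to 83.7 CPM at timepoint 1, and FN1 replicate 3 is the lowest of its group at both times.

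The mRNAs of many cell junction genes were lower at timepoint 3. Of 35 measured genes of junctions and polarity, 24 fell and 0 rose, with a median log2 fold change of -0.96, beside 12.5% lower and a median of 0.04 over all tested genes. CLDN4, a claudin of tight junctions, had 0.278, 0.399 and 0.836 CPM at timepoint 3, against 34.6, 35 and 83.7 CPM at timepoint 1 (log2 fold change -6.69 ± 0.38, adjusted p = 6.18e-08, edgeR). CLDN1 had 0.849, 0.782 and 1.07 CPM at timepoint 3, against 17.3, 15.3 and 21 CPM at timepoint 1 (-4.31 ± 0.15), the smallest p of all genes (adjusted p = 1.51e-09, edgeR). Occludin (OCLN) had 0.251, 0.333 and 0.655 CPM at timepoint 3, against 8.49, 11.1 and 8.23 CPM at timepoint 1 (-4.62 ± 0.39). In these 3 genes the lowest value of timepoint 1 was above the highest of timepoint 3 by a wide margin. The tight junction adaptors cingulin (CGN, -4.12 ± 0.25) and TJP1 (-1.53 ± 0.14) fell too, as did CLDN7 (-1.16 ± 0.10), whose span overlaps another tested gene. CDH1, which encodes E-cadherin, had 42.5, 58.2 and 37.3 CPM at timepoint 3, against 143, 220 and 181 CPM at timepoint 1 (-1.96 ± 0.22, adjusted p = 2.4e-05, edgeR). The count of lower members was 20 without the block and 22 to 24 when any single library of the 2 groups was left out.

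Immediate early genes were lower almost as a whole. Of 27 measured, 23 fell and 0 rose, with a median log2 fold change of -1.88. FOSB, a subunit of the AP-1 transcription factor, had 2.73, 4.66 and 3.86 CPM at timepoint 3, against 29.3, 59.1 and 59.6 CPM at timepoint 1 (log2 fold change -3.68 ± 0.20, adjusted p = 4.45e-08, edgeR). The nuclear receptor NR4A1 had 2.98, 6.96 and 6.41 CPM at timepoint 3, against 106, 96.1 and 99.2 CPM at timepoint 1 (-4.28 ± 0.25). FOS had 16.3, 27.1 and 21.7 CPM at timepoint 3, against 64.2, 106 and 84.1 CPM at timepoint 1 (-1.96 ± 0.12). None of these 3 overlapped between the groups. The transcription factors EGR3 (-4.84 ± 0.40), MAFF (-2.69 ± 0.17) and KLF6 (-1.88 ± 0.13) fell as well; EGR3 overlaps an antisense lncRNA. The count was 23 without the block and 23 or 24 when any single library was left out.

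Growth factor and inflammatory genes fell in part. Of 14 measured EGF family ligands and receptors, 8 fell and 1 rose (median log2 fold change -0.93), beside 12.5% lower and 11.4% higher over all tested genes. ERBB3, a receptor that pairs with ERBB2, had 5.15, 7.27 and 4.86 CPM at timepoint 3, against 31.3, 49.8 and 36.7 CPM at timepoint 1 (-2.76 ± 0.19, adjusted p = 4.4e-07, edgeR). The EGFR inhibitor ERRFI1 (-1.56 ± 0.10), the ligands TGFA (-1.11 ± 0.11), NRG2 (-2.32 ± 0.23) and HBEGF (-1.51 ± 0.21) and EGFR itself (-1.13 ± 0.21) fell; the EGFR call was lost without the block, where 5 of the list fell and 1 rose. Among 27 inflammatory cytokines and NF-kB targets 13 fell and 2 rose (median -0.93), among them LIF, the hyaluronan-binding protein TNFAIP6 (-3.84 ± 0.30), TNFAIP2 (-2.38 ± 0.17), the NF-kB subunit NFKB2 (-1.39 ± 0.18), the cytokine IL24 (-1.86 ± 0.26) and the adhesion molecule ICAM1 (-1.41 ± 0.20). Without the block 8 of them fell and 1 rose. ICAM1 overlaps another tested gene over most of its span.

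Among genes that bind, build or cut the matrix, more members fell than rose, though fewer than 1 in 2 of each list passed the test as lower, and fibronectin rose. Of 20 measured proteases and members of the plasminogen system 9 fell and 3 rose (median -0.63). The shares over all tested genes were 12.5% lower and 11.4% higher. Urokinase (PLAU), which activates plasminogen, had 7.46, 7.95 and 5.78 CPM at timepoint 3, against 116, 148 and 110 CPM at timepoint 1 (-4.14 ± 0.19, adjusted p = 1.34e-08, edgeR). Its receptor PLAUR (-2.16 ± 0.15), its inhibitor SERPINB2 (-5.83 ± 0.42), tissue plasminogen activator (PLAT, -1.46 ± 0.19) and the membrane proteases ADAM17 (-1.42 ± 0.18) and ADAM8 (-2.26 ± 0.29) fell as well. PLAU overlaps C10orf55 and SERPINB2 overlaps SERPINB10, and reads of these pairs may be shared. Of 24 genes of integrins and focal adhesions 11 fell and 1 rose (median -0.37), among them the collagen receptors ITGA2 (-2.04 ± 0.27) and ITGA1 (-1.40 ± 0.25), the fibronectin receptor subunit ITGA5 (-1.41 ± 0.26) and the integrin activator FERMT2 (-1.49 ± 0.14). The span of ITGA5 lies within that of another tested gene. With the offset for GC content and length 9 of the list fell and 3 rose, with a median of -0.16.

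Fibronectin (FN1) had 1343, 1413 and 321 CPM at timepoint 3, against 290, 378 and 104 CPM at timepoint 1 (1.96 ± 0.32, adjusted p = 0.000686, edgeR). It was higher in 3 of 3 pairs, but the groups overlapped, since replicate 3 at timepoint 3 lay below replicate 2 at timepoint 1. Over the 19 measured laminins and basement membrane genes 7 fell and 3 rose (median -0.54), beside 12.5% lower and 11.4% higher over all tested genes. The laminin chains LAMB3 (-1.37 ± 0.23), LAMA5 (-1.09 ± 0.22), LAMB2 (-1.08 ± 0.24) and LAMC1 (-0.72 ± 0.20) fell, and the anchoring fibril collagen COL7A1 rose (1.26 ± 0.27). Without the block 1 of the list fell and 1 rose, and the calls of FN1, LAMA5, LAMB2 and LAMC1 were lost. Leaving out replicate 1 of timepoint 1, or replicate 3 of timepoint 3, left 3 lower members, and leaving out replicate 2 of either timepoint left 4. With the offset for GC content and length 5 rose and 4 fell, with a median of -0.18, so the balance of this list turned.

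YAP and TAZ are cofactors that respond to cell spreading and tension, and of 23 of their known target genes 14 fell and 1 rose (median log2 fold change -0.55). CCN2, a matricellular protein, had 2.52, 0.998 and 0.752 CPM at timepoint 3, against 20.5, 32.8 and 14 CPM at timepoint 1 (-4.09 ± 0.34, adjusted p = 2.25e-06, edgeR). CCN1 had 5.55, 5.38 and 2.38 CPM at timepoint 3, against 28.8, 39.8 and 17.8 CPM at timepoint 1 (-2.72 ± 0.26), and neither gene overlapped between groups. The Hippo pathway kinase LATS2 (-1.63 ± 0.16), tissue factor F3 (-2.28 ± 0.25), GADD45B (-2.24 ± 0.24) and AMOTL2 (-1.73 ± 0.19) fell likewise. ANKRD1, another target, was too low to be tested. Without the block 11 of the list fell and 1 rose, and with the offset for GC content and length 13 fell and 3 rose (median -0.37). Over the same interval in 2D 12 of the 23 fell and 1 rose (median -0.64). The difference between the changes in 3D and 2D passed its test in 0 of them.

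Of 33 genes of actin and actomyosin 13 fell and 0 rose (median -0.33). Vinculin (VCL), which links integrins and cadherins to actin, had 93.1, 102 and 89.3 CPM at timepoint 3, against 204, 206 and 179 CPM at timepoint 1 (-1.05 ± 0.10, adjusted p = 4.78e-06, edgeR). Non-muscle myosin MYH9 had 162, 227 and 193 CPM at timepoint 3, against 289, 374 and 351 CPM at timepoint 1 (-0.81 ± 0.10). Beta-actin (ACTB) had 5263, 5866 and 6504 CPM at timepoint 3, against 8851, 8362 and 11860 CPM at timepoint 1 (-0.71 ± 0.17). These 3 did not overlap, whereas the actin crosslinker FLNA (-0.59 ± 0.13, adjusted p = 0.00558, edgeR) was lower in 3 of 3 pairs with overlapping groups. The FLNA call was lost without the block and with the offset for GC content and length, and the list count was 5 without the block 7 without replicate 1 of timepoint 1 and 8 without replicate 1 or replicate 3 of timepoint 3. With the offset the median of the list was -0.13.

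The ER chaperone genes were lower at timepoint 3. Of 23 measured ATF6 targets and ER chaperones 13 fell and 0 rose (median -0.49). HSPA5, which encodes the chaperone BiP, had 60.9, 51.1 and 38.8 CPM at timepoint 3, against 194, 211 and 95.8 CPM at timepoint 1 (-1.69 ± 0.20, adjusted p = 3.93e-05, edgeR). The ER membrane protein HERPUD1 had 83.3, 76.8 and 76.6 CPM at timepoint 3, against 128, 128 and 142 CPM at timepoint 1 (-0.75 ± 0.11). XBP1, the transcription factor that IRE1 activates by splicing, had 93.6, 74.1 and 79.9 CPM at timepoint 3, against 117, 107 and 120 CPM at timepoint 1 (-0.48 ± 0.11). The groups did not overlap in any of the 3, as in 26.9% of all tested genes. The chaperone HYOU1 (adjusted p = 0.00443, edgeR), the degradation adaptor SEL1L (-1.01 ± 0.26) and the co-chaperone DNAJC3 (-1.03 ± 0.27) fell. Of the sensors, ATF6 (-0.61 ± 0.13, adjusted p = 0.00396, edgeR) and ERN1 (-0.91 ± 0.23, adjusted p = 0.0118, edgeR) fell, and EIF2AK3 had a log2 fold change of -0.52 ± 0.20 (adjusted p = 0.0798, edgeR). The list count depended on single libraries: it was 3 without the block, 4 without replicate 1 and 5 without replicate 2 of timepoint 1, 5 without replicate 2 and 6 without replicate 3 of timepoint 3, but 14 without replicate 3 of timepoint 1.

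The ER stress response element is the motif that ATF6 and XBP1 recognise together with NF-Y, and it was looked for as CCAAT and CCACG with 9 bases between them, on both strands, in the 250 bases before the start of each gene. It was present in 6 of the 21 list genes with a promoter sequence (28.6%) and in 14 of 12230 tested genes with one (0.114%). The list was drawn up from known ATF6 targets, so this share describes how it was made and not these data. The 6 windows, from RefSeq promoters on GRCh38.p14, are shown because they share a motif and differ in response; the motif is in capitals, and it reads reversed and complemented in CALR and CRELD2.
HSPA5, chr9:125241344-125241593, minus strand: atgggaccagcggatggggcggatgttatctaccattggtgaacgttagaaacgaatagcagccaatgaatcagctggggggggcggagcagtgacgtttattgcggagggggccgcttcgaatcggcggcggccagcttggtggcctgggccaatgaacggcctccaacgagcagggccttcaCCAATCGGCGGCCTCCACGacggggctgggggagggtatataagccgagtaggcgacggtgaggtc
XBP1, chr22:28800573-28800652, minus strand: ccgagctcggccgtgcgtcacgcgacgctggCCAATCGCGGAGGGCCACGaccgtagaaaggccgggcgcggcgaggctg
HSP90B1, chr12:103930185-103930264, plus strand: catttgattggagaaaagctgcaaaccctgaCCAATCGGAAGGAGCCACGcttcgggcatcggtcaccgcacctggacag
CANX, chr5:179698747-179698826, plus strand: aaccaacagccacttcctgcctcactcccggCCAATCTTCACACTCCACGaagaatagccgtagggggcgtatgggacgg
CALR, chr19:12938359-12938438, plus strand: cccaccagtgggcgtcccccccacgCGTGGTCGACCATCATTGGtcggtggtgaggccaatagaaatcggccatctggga
CRELD2, chr22:49918523-49918602, plus strand: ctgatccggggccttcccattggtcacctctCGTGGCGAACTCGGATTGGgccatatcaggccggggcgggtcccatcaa
HSPA5, XBP1 and the chaperones HSP90B1 (-0.85 ± 0.24) and CANX (-0.54 ± 0.18) fell, while the chaperone CALR (-0.18 ± 0.14) and CRELD2 (0.03 ± 0.12) did not pass the test. HSP90B1, CANX, CALR and CRELD2 are named for the motif and not for their p. In HSPA5 the motif spans bases 66 to 48 before the start, and HSP90B1 holds a second copy at bases 89 to 71 on the other strand.

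Of 33 measured PERK-ATF4 targets 7 fell and 1 rose (median -0.21), and with the offset for GC content and length 6 fell and 4 rose. Among all tested genes 12.5% fell and 11.4% rose in the main fit. ATF3, a stress-induced transcription factor that is also counted with the immediate early genes, had 3.72, 3.58 and 3.27 CPM at timepoint 3, against 13.1, 10.9 and 24.3 CPM at timepoint 1 (-2.12 ± 0.27, adjusted p = 7.75e-05, edgeR). PPP1R15A, which reverses the PERK signal, fell (-1.41 ± 0.21), and so did the transcription factor CEBPB (-0.75 ± 0.10), TSC22D3 (-0.79 ± 0.17) and the glutathione-degrading enzyme CHAC1 (-1.60 ± 0.47), the last in 2 of 3 pairs only. The pseudokinase TRIB3 had 23.6, 32.6 and 42.8 CPM at timepoint 3, against 15.1, 14.5 and 15.2 CPM at timepoint 1 and rose without overlap (1.11 ± 0.14, adjusted p = 9.32e-05, edgeR). DDIT3, the pro-apoptotic factor CHOP, had 8.85, 7.74 and 9.59 CPM at timepoint 3, against 8.11, 5.08 and 6.4 CPM at timepoint 1, with overlapping groups (0.42 ± 0.16, adjusted p = 0.068, edgeR). ATF4 itself had 205, 204 and 245 CPM at timepoint 3, against 186, 145 and 300 CPM at timepoint 1 (0.09 ± 0.19, adjusted p = 0.764, edgeR). CHAC1 was no longer called when replicate 1 or 3 of timepoint 1 was left out, or replicate 1 or 3 of timepoint 3. Of the list 4 fell without the block and 4 without replicate 1 of timepoint 1. DDIT3 overlaps another tested gene over most of its span.

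**Figure D2:**
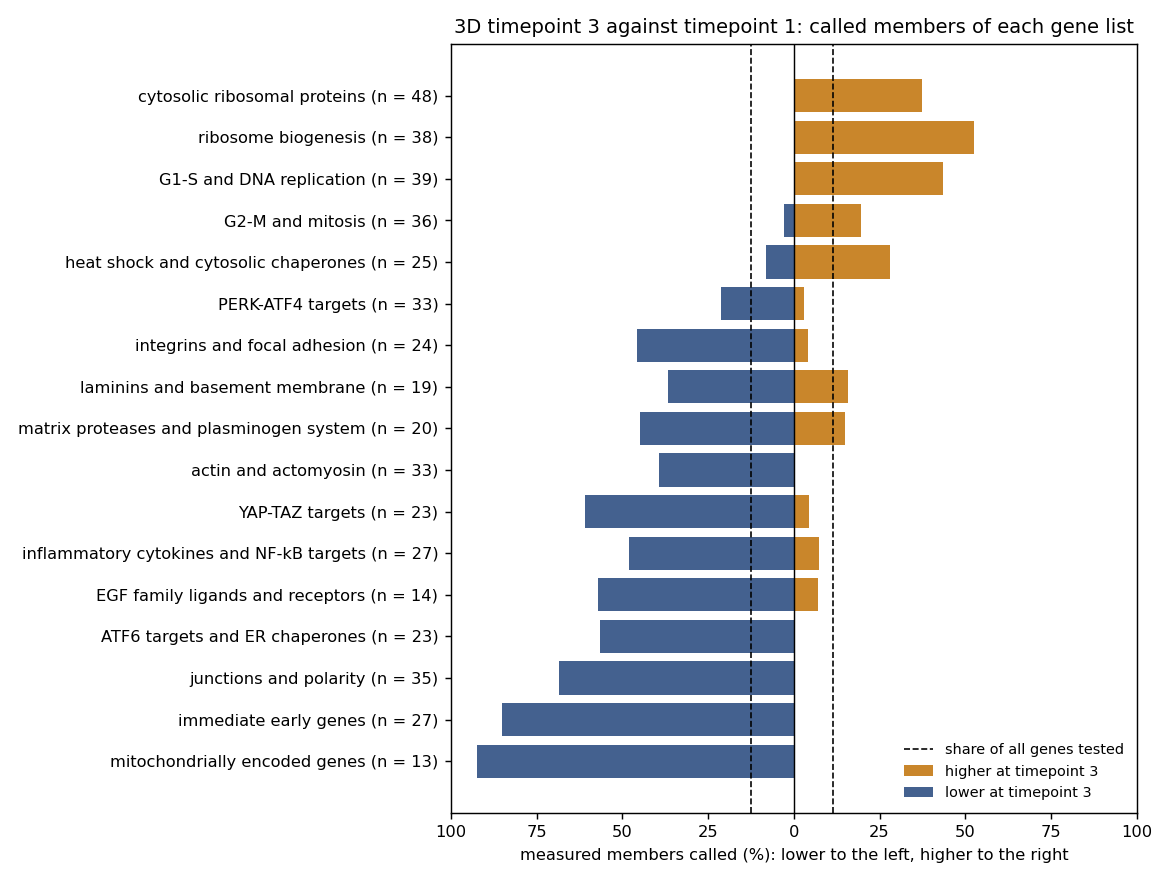
Share of the measured members of 17 gene lists that were called lower (left) or higher (right) in 3D at timepoint 3 against timepoint 1, with dashed lines at the shares over all tested genes, 12.5% lower and 11.4% higher. Immediate early genes (23 of 27 lower) and junction genes (24 of 35 lower) reach far to the left, and ribosome biogenesis (20 of 38 higher) and G1-S genes (17 of 39 higher) to the right.

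Some genes of cell growth and division rose. Of 38 ribosome biogenesis genes 20 rose and 0 fell (median 0.45). NOP56, a core protein of box C/D snoRNPs, had 660, 575 and 907 CPM at timepoint 3, against 294, 245 and 441 CPM at timepoint 1 (1.14 ± 0.11, adjusted p = 6.24e-06, edgeR). The helicase DDX10 (1.21 ± 0.16), the RNA polymerase I subunit POLR1B (0.75 ± 0.10) and the assembly factors RRS1 (0.86 ± 0.12), NOP16 (0.93 ± 0.16) and PNO1 (0.79 ± 0.14) rose. NOP16 and PNO1 lie wholly within other tested genes and RRS1 in part, and reads of these pairs may be shared. Of 39 genes of the G1-S transition and DNA replication 17 rose and 0 fell (median 0.30). Their summed CPM was 2562, 2355 and 3604 at timepoint 3, against 2148, 2142 and 2295 at timepoint 1, higher in 3 of 3 pairs and most in replicate 3. Without TMM scaling the sum of replicate 2 was lower at timepoint 3 (2210, against 2480). The median was 0.17 without replicate 3 of timepoint 1 in both cultures. Cyclin E1 (CCNE1) had 22, 18.1 and 24.8 CPM at timepoint 3, against 11.8, 9.67 and 12.3 CPM at timepoint 1 (0.94 ± 0.12, adjusted p = 6.88e-05, edgeR), with no overlap. The replication factors MCM10 (1.05 ± 0.16), GINS2 (0.94 ± 0.12), GINS3 (0.70 ± 0.11) and RFC2 (0.53 ± 0.10) and the histone mRNA-binding protein SLBP (0.61 ± 0.11) rose. Without the block 8 genes of ribosome biogenesis and 5 of the G1-S list rose, and the G1-S count was 10 or 11 without replicate 1 or 3 of timepoint 1 or replicate 3 of timepoint 3.

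Of 36 genes of the G2-M phases and mitosis 7 rose and 1 fell, with a median of 0.48, beside 11.4% higher over all tested genes. Their summed CPM was 2889, 2437 and 3731 at timepoint 3, against 2601, 2425 and 1837 at timepoint 1, nearly level in replicate 2 and furthest apart in replicate 3. Without TMM scaling it was lower at timepoint 3 in replicate 2 (2290, against 2810). The median was 0.14 without replicate 3 of timepoint 1 in both cultures. CKS2, a subunit of cyclin-dependent kinases, had 30.2, 27.6 and 35.8 CPM at timepoint 3, against 11.1, 8.91 and 12.1 CPM at timepoint 1 (1.55 ± 0.15, adjusted p = 9.04e-06, edgeR). Its groups were far apart, while its paralogue CKS1B (0.76 ± 0.14) had overlapping groups, with 22.1, 18.7 and 30.7 CPM at timepoint 3, against 11.1, 11.7 and 19.7 CPM at timepoint 1. BIRC5 (survivin, 0.63 ± 0.11), the checkpoint protein MAD2L1 (0.85 ± 0.20) and the anaphase-promoting complex partners CDC20 (0.74 ± 0.19) and UBE2C (0.54 ± 0.15) rose without overlap. Without the block 1 member rose, and 4 rose when replicate 3 of either timepoint was left out.

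The cell cycle homology region, TTTGAA, is the element bound by the DREAM and MuvB complexes at G2-M promoters. It was present on either strand in 17 of 30 G2-M promoters (56.7%), in 1 of 34 promoters of the G1-S list (2.94%) and in 8.88% of the 12230 promoters. BIRC5, MAD2L1 and UBE2C, which also rose, are not among the 17. Only 7 of the 36 list genes were called higher, so the element was not particular to the genes that rose. The element is shown in capitals in 3 of the genes that rose, 2 of them with it close to the start. It reads as TTCAAA on the plus strand in CKS2 and CDC20.
CKS2, chr9:89311115-89311194, plus strand: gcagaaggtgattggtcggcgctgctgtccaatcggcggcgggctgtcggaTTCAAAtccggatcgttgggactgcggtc
CKS1B, chr1:154974601-154974680, plus strand: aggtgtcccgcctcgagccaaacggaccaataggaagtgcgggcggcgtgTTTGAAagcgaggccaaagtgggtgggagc
CDC20, chr1:43358766-43358845, plus strand: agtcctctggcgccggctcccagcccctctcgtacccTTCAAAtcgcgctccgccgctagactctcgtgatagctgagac
The element lies at bases 29 to 24 before the start in CKS2 and at bases 30 to 25 in CKS1B. CDC20 has it at bases 178 to 173, within the stretch shown, and again at bases 65 to 60. Of the other lists searched, the TEAD motif GGAATG was found in 5 of 18 YAP-TAZ promoters (27.8%), CCN2 among them, and in 9.71% of all 12230. As with the ER list, the G2-M and YAP-TAZ shares describe how those lists were made and not these data.

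Of 25 genes of the heat shock list, which holds cytosolic and mitochondrial chaperones, 7 rose and 2 fell (median 0.30). Among all tested genes 11.4% rose and 12.5% fell. HSPA8, the constitutive cytosolic HSP70, had 6642, 6420 and 8378 CPM at timepoint 3, against 3401, 2847 and 4738 CPM at timepoint 1 (0.99 ± 0.13, adjusted p = 0.000105, edgeR), with no overlap. The HSP90 co-chaperones CHORDC1 (1.62 ± 0.28) and AHSA1 (0.57 ± 0.11), the mitochondrial co-chaperonin HSPE1 (0.82 ± 0.11) and DNAJA1 (0.63 ± 0.13) rose, and BAG3 fell (-0.65 ± 0.09). HSPE1 overlaps a readthrough gene. Without the block 3 rose and 1 fell.

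The count for cytosolic ribosomal protein genes changed with most of the libraries. Of 48 measured 18 rose and 0 fell, with a median of 0.76. Their summed CPM was 99829, 123894 and 116374 at timepoint 3, against 56979, 44655 and 118400 at timepoint 1, so that replicate 3 of timepoint 1 lay within the range of timepoint 3. RPS6 showed this, with 2502, 2552 and 2825 CPM at timepoint 3, against 1228, 906 and 2635 CPM at timepoint 1 (0.85 ± 0.25, adjusted p = 0.0231, edgeR). Without replicate 3 of timepoint 1 the count was 45, without replicate 1 or replicate 2 of timepoint 1 it was 1, without replicate 1 of timepoint 3 it was 3, without replicate 2 of timepoint 3 it was 1, and without the block it was 2. In 2D the summed CPM of these genes at timepoint 1 was 60873, 44154 and 116617, again highest in replicate 3. Many of these genes have processed pseudogenes, and the sources used here do not say how reads that match several places were counted.

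The mitochondrially encoded genes ran the opposite way in the same libraries. Of 13 measured 12 fell and 0 rose (median -0.97). Their summed CPM was 3955, 3211 and 2846 at timepoint 3, against 9091, 6428 and 4193 at timepoint 1, with replicate 3 the lowest of timepoint 1. MT-CO2, a subunit of cytochrome oxidase, had 560, 512 and 435 CPM at timepoint 3, against 1237, 921 and 656 CPM at timepoint 1 (-0.88 ± 0.19, adjusted p = 0.00483, edgeR). The count was 2 without replicate 1 of timepoint 1, 12 without its replicate 3 and 7 without replicate 2 of timepoint 3. In 2D the summed CPM of these genes at timepoint 1 was 8884, 8148 and 5589, again lowest in replicate 3. What part differences in RNA quality between libraries had in these values was not tested.

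Epithelial identity genes moved in both directions. The basal transcription factor TP63 had 40.4, 58.2 and 54 CPM at timepoint 3, against 16.2, 33.3 and 31.8 CPM at timepoint 1 (0.97 ± 0.13, adjusted p = 0.000127, edgeR). The basal keratin KRT14 had 145, 262 and 310 CPM at timepoint 3, against 70.7, 94.2 and 230 CPM at timepoint 1; it rose (0.98 ± 0.24) with overlapping groups, and its call was lost without the block, without replicate 1 or 2 of timepoint 1 and without replicate 2 of timepoint 3. KRT5 had a log2 fold change of -0.50 ± 0.18 (adjusted p = 0.0589, edgeR). Over 12 measured keratins of simple and basal epithelium 6 fell and 1 rose (median -0.57): KRT80 (-2.43 ± 0.29), KRT23 (-3.84 ± 0.54), KRT8 (-1.25 ± 0.21), KRT17 (-1.37 ± 0.24) and KRT7 (-0.64 ± 0.15) fell, KRT23 within the span of another tested gene. The intermediate filament vimentin (VIM) had 1383, 1468 and 1253 CPM at timepoint 3, against 1198, 910 and 983 CPM at timepoint 1 (0.42 ± 0.14, adjusted p = 0.0483, edgeR), a call that several alternatives did not keep. Of 24 p53 targets 10 fell and 1 rose (median -0.48), including the cell cycle inhibitor CDKN1A (-0.80 ± 0.13), BTG2 (-1.56 ± 0.14) and GADD45A (-1.89 ± 0.20), while TP73 rose. Of 19 glucocorticoid-responsive genes 9 fell and 1 rose (median -0.55), among them the phosphatase DUSP1 (-0.78 ± 0.13), RHOB (-1.89 ± 0.21) and CDKN1C (-1.83 ± 0.36). The shares over all tested genes, for each of these lists, were 12.5% lower and 11.4% higher.

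The net change can be set beside its 2 steps in 3D, which share the libraries of timepoint 1 and of timepoint 3 with it. At timepoint 2 against timepoint 1, 5279 genes differed (28.4%), 2750 higher and 2529 lower. At timepoint 3 against timepoint 2, edgeR called 0 genes, with 1919 at an unadjusted p under 0.05; DESeq2 called 258, and edgeR called 67 when those groups were fitted alone and 54 with no filter on low counts. CLDN4 had a log2 fold change of -5.93 at timepoint 2 against timepoint 1 and of -0.76 at timepoint 3 against timepoint 2. HSPA5 had -1.75 and 0.05 in the same steps, FOSB -3.51 and -0.17, FN1 2.09 and -0.13 and NOP56 1.00 and 0.15. In mitotic genes the values were placed differently, with -0.02 and 0.65 in BIRC5, -0.05 and 0.79 in CDC20 and 0.16 and 0.69 in MAD2L1, against 1.48 and 0.07 in CKS2. No second step of these genes passed the test. For the G2-M list the median was -0.23 in the first step (1 higher and 2 lower of 36) and 0.72 in the second (0 called), and for the G1-S list it was 0.01 (7 higher and 2 lower of 39) and 0.29 (0 called).

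**Figure D3:**
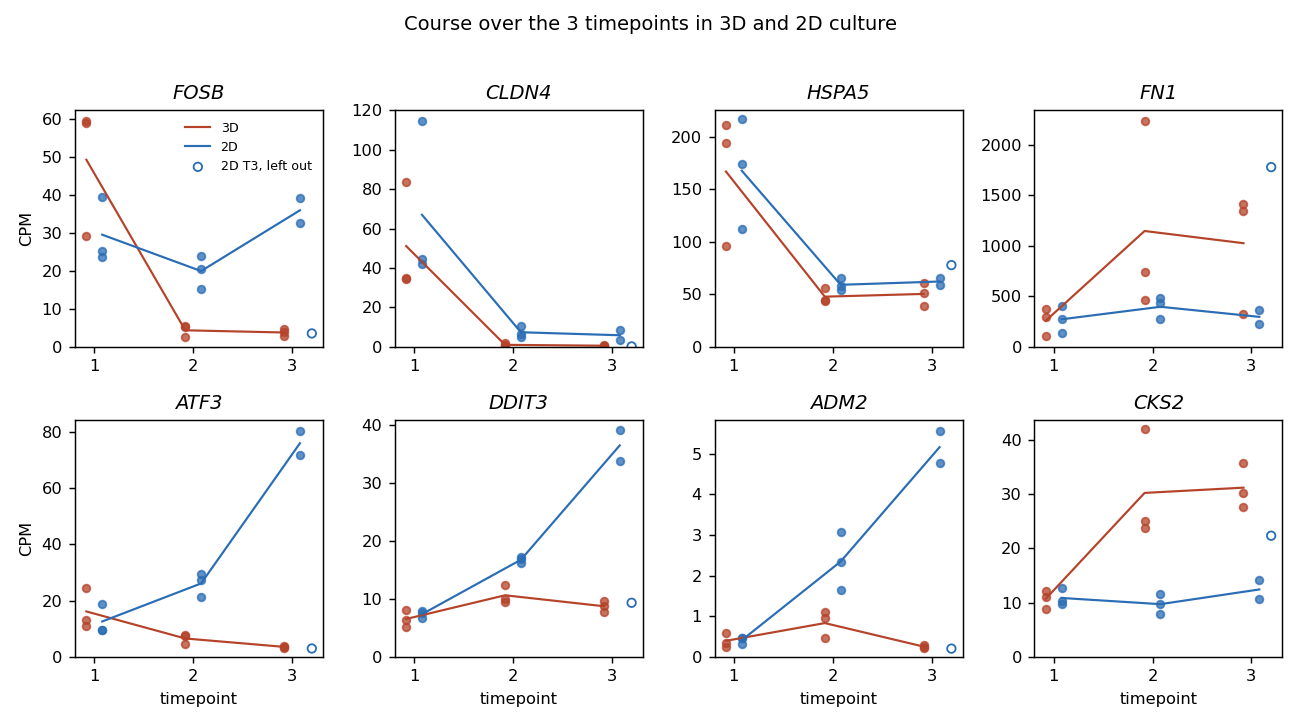
CPM of 8 genes at timepoints 1, 2 and 3 in 3D (red, left) and 2D (blue); points are libraries, lines join group means, and the open blue circle is the 2D timepoint 3 library left out of the tests and of the mean. HSPA5 is low in both cultures from timepoint 2 on, while ATF3, DDIT3 and ADM2 are high at timepoint 3 in the 2 fitted 2D libraries and not in 3D or in the left-out library.

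Over the same interval in 2D, 1954 genes differed (10.5%), 1001 higher (5.38%) and 953 lower (5.13%), from 2 libraries at timepoint 3 and 3 at timepoint 1. The 2 comparisons share no library. Of the genes higher in 3D 543 were also higher in 2D, 25.5% of the 3D list and 54.2% of the 2D list. Of the genes lower in 3D 759 were also lower in 2D, 32.7% of the 3D list and 79.6% of the 2D list. Opposite calls were rare, with 12 genes higher in 3D and lower in 2D and 16 lower in 3D and higher in 2D. With the left-out 2D library included, 2402 of 18111 tested genes differed in 2D. The overlaps given here are for the fit without it. HSPA5 fell in 2D as well (-1.31, adjusted p = 0.00236, edgeR), and TP73 rose there (3.23, adjusted p = 2.41e-06, edgeR); the difference between the changes was -0.38 ± 0.29 in HSPA5 and 0.11 ± 0.32 in TP73, and neither passed its test (adjusted p = 0.575 and 0.905, edgeR).

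The difference of the changes, 3D minus 2D, was tested as an interaction and passed in 290 genes (1.56% of those tested), 100 higher (0.538%) and 190 lower (1.02%). This result rested on leaving out the library labelled 2D timepoint 3 replicate 1: with it, edgeR called 0 genes, with 1965 at an unadjusted p under 0.05. In 259 of the 290 genes (89.3%) that library lay nearer to the mean of 3D timepoint 3 than to the mean of the other two 2D libraries of timepoint 3. The interaction is therefore described only for the 2 remaining 2D libraries. The value of the left-out library is given beside it for ATF3, DDIT3, FOSB and CLDN4, and as list sums for the G2-M and G1-S genes.

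PERK-ATF4 targets were among the genes with a called difference. In 2D 16 of 33 rose and 0 fell (median 0.52), and 14 of 33 had an interaction called lower in 3D. With the left-out library put back, 12 of 33 rose and 0 fell in 2D (median 0.30), and 0 had a called interaction. ATF3 had 3.72, 3.58 and 3.27 CPM at 3D timepoint 3, against 13.1, 10.9 and 24.3 CPM at 3D timepoint 1; in 2D it had 80.2 and 71.6 CPM at timepoint 3, against 9.39, 9.51 and 18.8 CPM at timepoint 1. The difference of the changes was -4.65 ± 0.39 (adjusted p = 0.000119, edgeR), and the left-out 2D library had 2.95 CPM. DDIT3 had 39.1 and 33.9 CPM at 2D timepoint 3, against 7.52, 6.65 and 7.89 CPM at 2D timepoint 1, a difference of the changes of -1.92 ± 0.24 (adjusted p = 0.00239, edgeR), with 9.32 CPM in the left-out library. ADM2, a peptide hormone of the calcitonin family, had a difference of -4.02 ± 0.49, TRIB3 of -1.28 ± 0.21 and PPP1R15A of -1.93 ± 0.30. With the left-out library put back, the differences were -3.95 in ATF3, -1.45 in DDIT3 and -3.27 in ADM2 (adjusted p = 0.289, 0.35 and 0.314, edgeR).

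**Figure D4:**
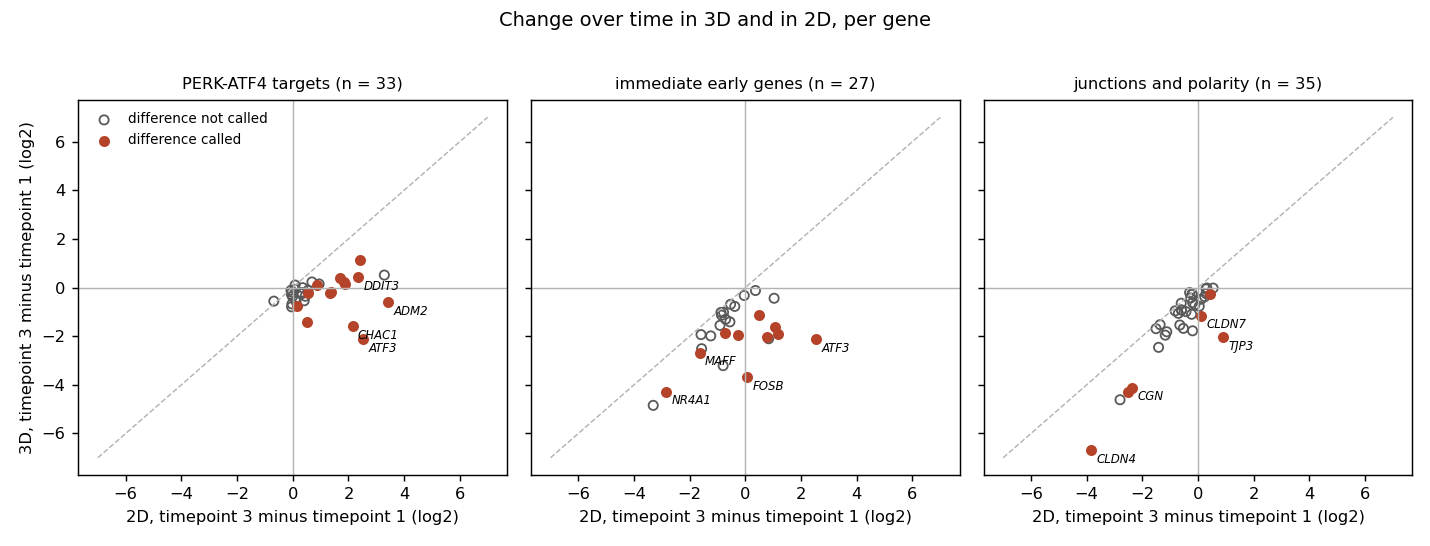
Log2 change from timepoint 1 to timepoint 3 in 3D (vertical axis) and 2D (horizontal axis, 2 fitted libraries at timepoint 3) for each measured gene of 3 lists; filled points had a called interaction, and the dashed line marks equal change. The filled points, 14 of the PERK-ATF4 list, 10 immediate early genes and 6 junction genes, all lie below the line.

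Immediate early and junction genes also differed between the cultures in these libraries. Of the 27 immediate early genes 13 fell and 3 rose in 2D, and 10 had an interaction called lower in 3D. FOSB had 39.2 and 32.8 CPM at 2D timepoint 3, against 23.7, 25.4 and 39.6 CPM at 2D timepoint 1, and its difference of the changes was -3.73 ± 0.27 (adjusted p = 3.95e-05, edgeR), with 3.5 CPM in the left-out library. Of the 35 junction genes 14 fell and 2 rose in 2D, and 6 had a called interaction, all lower in 3D. CLDN4 differed by -2.85 ± 0.47, CLDN1 by -1.79 ± 0.20 and CLDN7 by -1.28 ± 0.15. The left-out library had 0.139 CPM of CLDN4, against 3.21 and 8.42 CPM in the other two 2D libraries of timepoint 3. In the other direction, 4 of the 36 G2-M genes and 3 of the 39 G1-S genes had a called interaction higher in 3D. Among them were CKS2 (1.37 ± 0.23), BIRC5 (0.92 ± 0.16), CKS1B (1.06 ± 0.21), UBE2C (0.99 ± 0.23), GINS2 (1.30 ± 0.18) and RFC2 (0.67 ± 0.15). Without TMM scaling the left-out library had a G2-M sum of 2820 CPM. The fitted 2D libraries of timepoint 3 had 1550 and 2200 CPM, and those of 3D timepoint 3 had 2850, 2290 and 3440 CPM. For the G1-S list the sums were 2580 CPM, 1630 and 2420 CPM, and 2520, 2210 and 3330 CPM in the same order.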

How the data were processed

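Poly-A RNA of MCF10A cells was sequenced by the authors. STAR 2.7.1a, HOMER, edgeR, limma and the build hg38 are named in the submitters' processing notes, without their roles. The authors deposited whole-number counts of 60662 genes in 18 libraries, and log2 CPM values of 17, whose headers give the library totals. Because summed counts exceeded those totals, no counting intervals were computed.

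Counts were filtered with filterByExpr, scaled by TMM and tested with edgeR 4.0.16 (R 4.3.3), over 17 libraries with a term per group and the replicate number as a block. Calls were made at a Benjamini-Hochberg adjusted p under 0.05, and a standard error is the log2 fold change divided by the root of F. The description of each library holds a date, the same for all libraries of a replicate number, without saying what was done on it. Deviations of equally numbered libraries from their group means correlated (0.155 to 0.255, against -0.227 to 0.0237 for unequal numbers). Such deviations cancel out within a group, so higher values for equal numbers force lower ones for unequal numbers. The unequal numbers are therefore not an independent baseline. In data simulated for this comparison (17908 genes, 200 of them changed), 13.4% of 1.5-fold, 58.2% of 2-fold and 81.8% of 4-fold changes were recovered, with 5 false calls. Far more genes were called in the real data, so these shares may not carry over to them. Alternatives used DESeq2 1.42.0 and limma 3.58.1.

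Named genes were, per direction, the 12 with the largest fold, the 8 with the smallest p, the 6 with the largest interaction, and up to 6 members of each list. Those named for fold or p were taken only from called genes without overlap between the groups. Their mean CPM was at least 5 in the higher group. The members and lists were chosen with earlier results of these data known. Promoter sequences are from RefSeq (GRCh38.p14). The authors' tables comparing 3D with 2D at single timepoints were not used. Some genes that the rule names are not reported here.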

Additional observations from a re-analysis of the deposited data

Results flagged for a closer look

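The change over time differed between 3D and 2D in 290 genes by the interaction test, and the genes named for it had the largest differences in each direction. The log2 difference of the changes, 3D minus 2D, was 1.65 in MND1, 1.55 in RPL22L1, 1.54 in PFDN4, 1.48 in MPHOSPH6, 1.43 in MYOSLID and 1.42 in LINC00460. It was -6.05 in NFATC2, -4.71 in ENSG00000249007, -4.65 in ATF3, -4.29 in MUC16, -4.18 in ELF3 and -4.02 in ADM2. The NFATC2 value depends on the prior count, since its 3D level was at the floor, and ENSG00000249007 lies within ELF3. With the left-out 2D library included, edgeR called 0 genes for this difference, with 1965 at an unadjusted p under 0.05.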

How the results depend on the processing

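In the comparison of 3D timepoint 3 with timepoint 1, the pairing by replicate number mattered: without the block, calls numbered 2049 in that comparison, 34 for its difference from 2D, 2801 for 3D timepoint 2 against timepoint 1 and 903 for the 2D change. Fitting the groups alone gave 2549, 97, 2796 and 460 in the same comparisons and 67 for 3D timepoint 3 against timepoint 2. Requiring a fold of at least 2 left 1554 for the net 3D change, 1823 for the first step and 877 for 2D. The difference from 2D had 898 calls by DESeq2, 0 with all 18 libraries and 584 without replicate 3 of timepoint 1 in both cultures, an alternative chosen after seeing the data. The second step in 3D had 258 calls by DESeq2, 3 by limma-voom, 54 with no filter, 3 at a mean CPM of at least 1, 10 with the GC and length offset and 10 from the authors' log2 CPM.

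Leaving out single libraries gave 2897 (without 3D timepoint 1 replicate 1) to 4401 calls for the net 3D change, 15 (without 2D timepoint 3 replicate 2) to 332 for the difference from 2D, 3280 (without 3D timepoint 1 replicate 2) to 5323 for the first step, 0 to 1 for the second and 642 (without 2D timepoint 3 replicate 2) to 1891 for 2D. Leaving out a replicate number in all groups gave as few as 1938, 2, 1823 and 393 calls in the net change, the difference, the first step and 2D. Among values of named genes under the alternatives, 6080 stayed called or stayed uncalled, 597 lost the call and 50 gained one. Of the values called in either fit, 0 reversed direction. Changes of sign in values called in neither fit were not counted. Of 2-fold changes 58.2% were recovered in simulated data in which only 200 genes changed. That share may not hold where many genes change, and small changes may be missed.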
